A study of Mus musculus with 6 samples.

Results

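The genes of major histocompatibility complex (MHC) class II antigen presentation were followed in livers of 23-month-old mice, labelled as knockout or wild type for Itpr2. Itpr2 is an inositol trisphosphate receptor that lets calcium out of intracellular stores. The class II genes were taken by name, as 8 genes. They encode chains of the class II molecule (H2-Aa, H2-Ab1, H2-Eb1), the proteins that load it with peptide (H2-DMa, H2-DMb1, H2-DMb2), the invariant chain (Cd74) and the master regulator of the genes (Ciita). These genes had 9 of the 39429 probes on the array, 2 of them for H2-Ab1. Of the 8 genes, 7 passed the filter on dim probes and stood among the 17996 genes tested, and Ciita did not. The 2 groups were 3 Itpr2KO livers and 3 wild-type (WT) livers, each from a separate C57Bl/6 mouse kept on standard diet in a specific pathogen-free facility, without treatment, as part of a survival cohort. How the Itpr2 allele was made, in which cells it acts and the sex of the mice are not given in the sources used here. Each liver was profiled on 1 Agilent 1-colour array, and a level here is the log2 signal of a probe minus the 75th percentile of its own array. Levels of different probes are not on 1 scale, so each gene is compared with itself across arrays.

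MHC class II molecules are pairs of an alpha and a beta chain that carry peptides from endosomes to the surface of antigen-presenting cells, where helper T cells read them. The invariant chain holds new pairs until they reach the endosome, and the DM proteins then exchange its remnant for a peptide. In the liver, class II is carried mainly by dendritic cells, B cells, Kupffer cells and recruited macrophages and not by resting hepatocytes, and Ciita with the factors it recruits switches the genes on together, interferon gamma being a main inducer.

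The arrays were not equal in what else they held. Of 11 striated muscle markers, 11 were above background on KO 3 and on WT 1, and 3 on each of the other arrays. The summed linear signal of these markers, in multiples of the array's 75th percentile, was 0.277, 0.320 and 130.1 on KO 1, KO 2 and KO 3, against 120.9, 0.321 and 0.384 on WT 1, WT 2 and WT 3. Fat cell markers summed to 0.122, 1.60 and 15.5 on KO 1, KO 2 and KO 3, against 2.08, 1.67 and 0.268 on WT 1, WT 2 and WT 3, so that KO 3 was the highest for them too. The main results are therefore also given without KO 3 and WT 1. All 7 hepatocyte markers with a probe were above background on every array. Itpr2 itself had levels of 2.54, 2.38 and 2.20 in the Itpr2KO livers, against 3.04, 3.07 and 3.08 in the WT livers, a change of -0.69 ± 0.13 (SE; adjusted p = 0.810, limma with Benjamini-Hochberg adjustment). KO 3 thus had the lowest Itpr2 level of the 6 arrays, and the genotypes did not overlap. The Itpr2 probe was still well above background on all 3 Itpr2KO arrays.

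The class II chains had lower means in Itpr2KO livers, where KO 1 and KO 2 were low and KO 3 was not. H2-Aa, the alpha chain of the I-A molecule, had levels of 0.92, 0.96 and 2.17 in KO 1, KO 2 and KO 3, against 2.05, 2.12 and 2.42 in WT 1, WT 2 and WT 3. Its mean was 1.35 ± 0.71 in Itpr2KO livers and 2.20 ± 0.20 in WT livers (SD, n = 3 each), a log2 change of -0.85 ± 0.35 (SE) or 0.555 times the WT signal, which did not pass the test (limma with Benjamini-Hochberg adjustment over all genes, adjusted p = 0.810). KO 1 and KO 2 lay more than 1 log2 unit under every WT liver, and KO 3 lay among them. In whole liver RNA, fewer cells that carry class II and less class II RNA per cell cannot be told apart, and this holds for every gene below.

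H2-Ab1, the beta chain that pairs with H2-Aa, had levels of 4.15, 4.77 and 5.76 in KO 1, KO 2 and KO 3, against 5.48, 5.30 and 5.60 in the WT livers. Again KO 1 and KO 2 were the 2 lowest of the 6 livers, and KO 3 was the highest. The means were 4.89 ± 0.81 in Itpr2KO livers and 5.46 ± 0.15 in WT livers (SD, n = 3 each), a change of -0.57 ± 0.39 (SE; limma adjusted p = 0.833). The second probe of H2-Ab1 gave the same order in the Itpr2KO livers, at 4.09, 4.60 and 5.64, against 5.20 and 5.48 in WT 2 and WT 3, its spot on WT 1 having been left out as marked an outlier. Its change, with WT 1 missing from the fit, was -0.57 ± 0.46 (SE; limma adjusted p = 0.845).

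H2-Eb1 encodes the beta chain of the I-E molecule, whose alpha chain gene, H2-Ea, had no probe here and is known not to be expressed in this strain. Its levels were 3.91, 4.33 and 5.34 in KO 1, KO 2 and KO 3, against 5.07, 5.06 and 5.13 in the WT livers. The WT livers differed very little from one another while the Itpr2KO livers lay on both sides of them. The mean was 4.53 ± 0.74 in Itpr2KO livers and 5.09 ± 0.041 in WT livers (SD, n = 3 each), a change of -0.56 ± 0.35 (SE; limma adjusted p = 0.826).

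Cd74, the invariant chain that escorts new class II pairs, had levels of 3.30, 3.28 and 4.61 in KO 1, KO 2 and KO 3, against 4.17, 4.25 and 4.31 in the WT livers. Both KO 1 and KO 2 lay under all WT livers and KO 3 above them. The mean was 3.73 ± 0.76 in Itpr2KO livers and 4.24 ± 0.070 in WT livers (SD, n = 3 each), a change of -0.51 ± 0.36 (SE; limma adjusted p = 0.834).

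H2-DMa, the alpha chain of the peptide exchange factor, was the only gene of the set whose genotypes did not overlap on this scale. Its levels were -0.43, -0.61 and 0.13 in KO 1, KO 2 and KO 3, against 0.30, 0.36 and 0.68 in the WT livers. All 3 Itpr2KO livers lay under all 3 WT livers, and KO 3 was the nearest to them. The change was -0.75 ± 0.23 (SE), with an unadjusted limma p of 0.0142 and an adjusted p of 0.810. An exact two-sided permutation test of this gene gave p = 0.1, the smallest that 3 against 3 livers allow.

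H2-DMb1, a beta chain of the same factor, had levels of 1.14, 1.05 and 2.33 in KO 1, KO 2 and KO 3, against 2.03, 1.99 and 2.19 in the WT livers. As for Cd74, KO 1 and KO 2 lay under the WT livers and KO 3 above them. The change was -0.57 ± 0.35 (SE; limma adjusted p = 0.820). H2-DMb2 is a near-identical copy of H2-DMb1 beside it on the chromosome, so the signal of either probe may hold RNA of the other gene and both are uncertain in this respect. Its dim probe read -4.66, -5.22 and -3.27 in KO 1, KO 2 and KO 3, against -4.10, -3.62 and -5.13 in the WT livers, and it was not well above background on KO 2. Both genotypes spread widely here and overlapped, and the change was -0.10 ± 0.58 (SE; limma adjusted p = 0.984).

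Ciita, which switches the class II genes on, was not well above background on any of the 6 arrays and was not tested. Its probe read -5.87, -7.42 and -7.20 in KO 1, KO 2 and KO 3, against -7.09, -7.16 and -7.32 in the WT livers. The lowest level of any probe well above background was between -5.76 and -5.47 on the Itpr2KO arrays and between -5.83 and -5.63 on the WT arrays, so the values of Ciita give no order between genotypes.

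**Figure D1:**
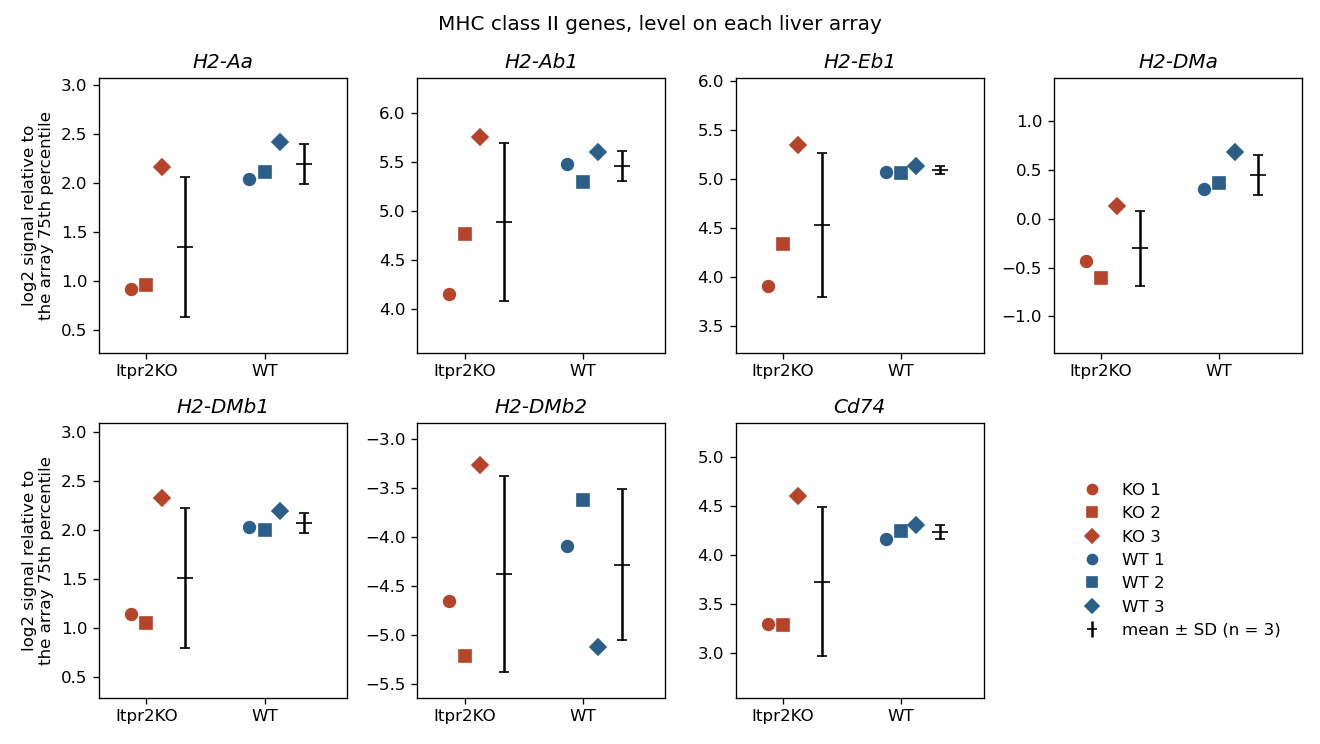
Each point is the level of 1 liver (log2 signal relative to the 75th percentile of its array, one panel per gene), with Itpr2KO left of WT and bars for the mean ± SD (n = 3). KO 1 and KO 2 lie under the WT livers in 6 of the 7 panels, while KO 3 lies among or above them in 5 of those 6 and under them for H2-DMa; H2-DMb2 follows no such order.

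All 7 tested genes had a lower mean in Itpr2KO livers, where 45.9% of all genes did. The median change over the 7 was -0.57, against 0.022 over all 17996 genes. None of the 7 passed the adjusted threshold of 0.05, which 0.00556% of all genes passed, a single gene. Only H2-DMa had an unadjusted limma p under 0.05 with a lower mean, where 2.66% of all genes did. Of the 7, 1 showed no overlap with a lower level in every Itpr2KO liver, where 5.15% of genes did. The share of all genes with a lower mean moved to 60.6% when arrays were centred on their median, and H2-Aa then no longer overlapped between genotypes either.

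The spread among the Itpr2KO livers was wider than among the WT livers for the 6 genes measured on every array. Their SD was 0.39 to 0.81 in Itpr2KO livers and 0.041 to 0.20 in WT livers, where the median SD of all genes was 0.254 in Itpr2KO livers and 0.159 in WT livers. Relative to the WT mean, the 6 genes lay between -1.31 and -0.88 in KO 1, between -1.24 and -0.69 in KO 2, and between -0.32 and 0.37 in KO 3. The mean of the 6 centred levels was -0.77, -0.64 and 0.45 in KO 1, KO 2 and KO 3, against 0.25, 0.25 and 0.46 in WT 1, WT 2 and WT 3. KO 3 thus stood with the WT livers on this scale. It was also the Itpr2KO array with muscle and fat transcripts and with the lowest 75th percentile of signal, 7.98 against 8.38 to 8.47 on the log2 scale on the other 5 arrays. The part of these transcripts in the class II levels was not tested.

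The place of KO 3 depended on whether arrays were scaled, and in part on how. With quantile normalization Cd74 read 11.67, 11.58 and 12.95 in KO 1, KO 2 and KO 3, against 12.51, 12.62 and 12.64 in the WT livers. Only H2-DMa then had no overlap, as in the main scaling. With median centring KO 3 lay under all WT livers for H2-Aa and H2-DMa, and among them for H2-Ab1, H2-Eb1 and H2-DMb1. For Cd74 it stayed just above them, at 8.385 against 8.377 in WT 3. On unscaled log2 signals, an alternative added after seeing the data, KO 3 lay under all WT livers for H2-Aa, H2-Eb1, H2-DMa, H2-DMb1 and Cd74, which made 5 of 7 genes with no overlap, where 7.81% of all genes had none with a lower level. Cd74, for example, then read 11.73, 11.70 and 12.59 in KO 1, KO 2 and KO 3, against 12.64, 12.63 and 12.68 in the WT livers. Unscaled, all 7 had a lower mean, where 69.7% of all genes did, and 6 of the 7 had an unadjusted limma p under 0.05, where 4.04% did with a lower mean. The median change of the 7 was then -0.71, against -0.12 over all genes, and none passed the adjusted threshold (limma adjusted p from 0.971 to 0.984).

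The genotype difference depended on which Itpr2KO livers were kept. Without KO 3 the median change of the 7 genes was -0.97, with H2-Aa at -1.26 ± 0.16, H2-DMb1 at -0.98 ± 0.13 and Cd74 at -0.95 ± 0.12 (SE; limma adjusted p = 0.283, 0.289 and 0.283). Without KO 1 the median was -0.29 and without KO 2 it was -0.46. With both arrays that held muscle transcripts left out, 2 livers remained per genotype, and all 7 genes had a lower mean, where 47.3% of all genes did. H2-Aa was then at -1.34 ± 0.19, H2-DMa at -1.04 ± 0.20, H2-Eb1 at -0.98 ± 0.21 and H2-Ab1 at -0.99 ± 0.27 (SE; limma adjusted p = 0.506 to 0.610). In that comparison 6 of the 7 had an unadjusted limma p under 0.05, where 3.54% of all genes did with a lower mean, and none passed the adjusted threshold, which 0% of all genes passed.

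The arrays were on 2 slides that each held both genotypes. Within slide 1, which held KO 1, WT 1 and WT 2, the median change of the class II genes was -0.91, and within slide 2, which held KO 2, KO 3 and WT 3, it was -0.36. With the slide as a block the median was -0.73, with 6 of the 7 genes lower and limma adjusted p between 0.937 and 0.998.

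**Figure D2:**
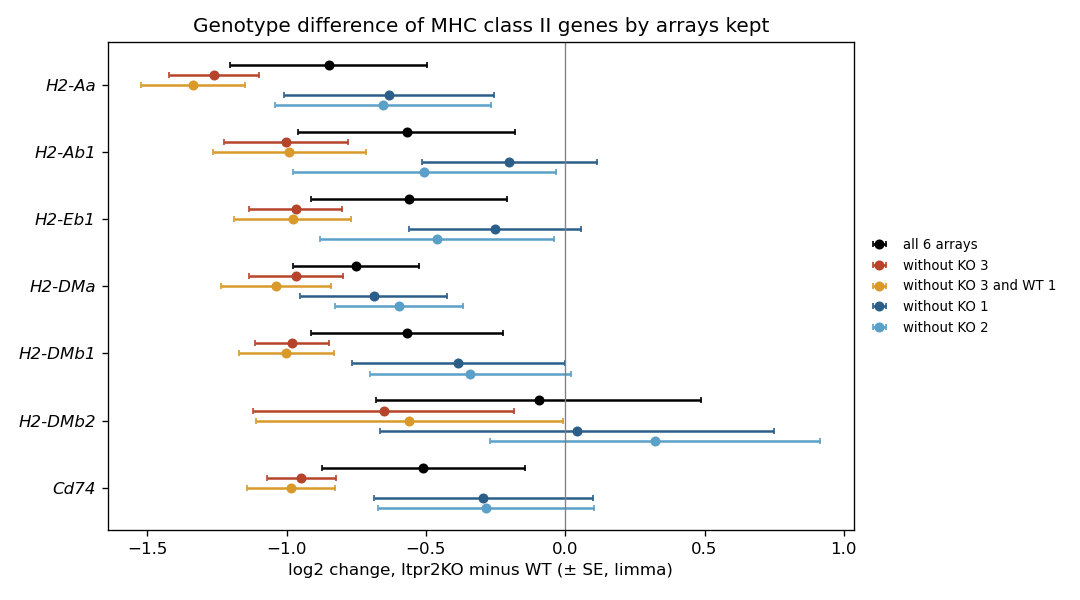
Each point is the log2 change of a class II gene (Itpr2KO minus WT, limma, bars ± SE) in the fit to all 6 arrays and in fits that leave arrays out. Leaving out KO 3 moves H2-Aa to -1.26 and Cd74 to -0.95, and leaving out KO 1 or KO 2 brings every gene nearer to 0 or, for H2-DMb2, above it.

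The 6 class II genes measured on every array had similar profiles over the arrays, KO 1 and KO 2 being lowest for each. Over the 6 arrays, the centred levels of any 2 of the 6 well measured genes differed by a root mean square of 0.062 to 0.337 log2 units over 15 pairs. H2-DMb1 lay nearest to the mean profile of the 6, at 0.077, and H2-DMa farthest, at 0.207. H2-DMb2 differed from each of the 6 by 0.548 to 0.733. The values are descriptions over 6 arrays that differ in slide and in depth of signal.

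Promoter windows were looked at because class II genes are known to share promoter elements. RefSeq windows of assembly GRCm38.p6, from 250 bases before to 50 after the gene start, were at hand for 5 of the 8 genes, as 6 windows. Both strands were searched for TGATTGG, the letters of the Y element that factor NF-Y binds, and for AAC, 2 or 3 bases of any kind and then TGANG, letters of the X element that the RFX complex and CREB bind. A pair counted where the X letters ended 10 to 25 bases before the Y letters began. These letters were chosen after reading these windows, so their presence supports nothing. The 4 windows with a pair are printed 5′ to 3′ on the strand of the gene, with both elements in capitals. They belong to H2-Aa at chr17:34287774-34288073 on the minus strand, and on the plus strand to H2-Eb1 at chr17:34305617-34305916, H2-DMb1 at chr17:34152941-34153240 and H2-DMb2 at chr17:34144999-34145298.
H2-Aa: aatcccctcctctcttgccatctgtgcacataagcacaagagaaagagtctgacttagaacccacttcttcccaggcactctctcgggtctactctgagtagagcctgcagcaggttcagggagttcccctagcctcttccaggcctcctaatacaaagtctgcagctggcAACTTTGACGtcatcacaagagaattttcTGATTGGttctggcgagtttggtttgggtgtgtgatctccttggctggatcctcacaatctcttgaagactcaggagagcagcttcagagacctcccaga
H2-Eb1: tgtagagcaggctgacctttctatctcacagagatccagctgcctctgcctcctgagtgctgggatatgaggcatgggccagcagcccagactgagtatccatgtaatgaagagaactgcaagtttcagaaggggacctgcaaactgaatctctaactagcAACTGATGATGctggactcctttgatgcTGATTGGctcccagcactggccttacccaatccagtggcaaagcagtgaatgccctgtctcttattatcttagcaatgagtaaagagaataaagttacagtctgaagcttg
H2-DMb1: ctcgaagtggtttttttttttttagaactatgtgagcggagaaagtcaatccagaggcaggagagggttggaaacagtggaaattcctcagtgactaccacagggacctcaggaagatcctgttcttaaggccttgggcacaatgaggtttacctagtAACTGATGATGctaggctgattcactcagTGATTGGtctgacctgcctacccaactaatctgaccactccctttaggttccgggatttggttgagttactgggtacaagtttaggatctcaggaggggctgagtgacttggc
H2-DMb2: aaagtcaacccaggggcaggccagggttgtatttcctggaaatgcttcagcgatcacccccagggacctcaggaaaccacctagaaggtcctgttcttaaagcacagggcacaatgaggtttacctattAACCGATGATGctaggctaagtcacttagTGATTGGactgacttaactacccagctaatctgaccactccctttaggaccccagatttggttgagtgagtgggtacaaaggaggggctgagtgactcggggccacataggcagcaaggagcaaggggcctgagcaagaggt
The elements were 19, 17, 18 and 18 bases apart in the order printed. Of all 32851 promoter windows, 7.82% held the Y letters, 5.77% the X letters and 0.0457% such a pair. H2-DMb2 carried the pair without the level pattern of H2-DMb1, and neither window of H2-DMa held a pair. The absence says only that these letters are not in those windows.

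Genes that act with class II were read by group, and no gene of these groups passed the adjusted threshold (limma adjusted p from 0.810 to 0.999 for those named). Of 4 other class II genes, 3 were tested, 1 with a lower and 2 with a higher mean. H2-Oa, a chain of the DO protein that restrains DM, had levels of -3.25, -2.55 and -0.81 in KO 1, KO 2 and KO 3, against -2.09, -2.20 and -2.34 in the WT livers. The low KO 1 and KO 2 and the high KO 3 left a change of 0.01 ± 0.58 (SE). H2-Ob, its partner, differed by 0.57 ± 0.44 (SE) and H2-Eb2 by -0.10 ± 0.50 (SE), and the median of the 3 was 0.0053 with all arrays and -0.63 without KO 3 and WT 1.

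The transcription factors and cofactors of the X and Y elements had a median change near that of all genes. Of 10 such genes, 9 were tested, 5 with a lower and 4 with a higher mean, and the median change was -0.033, against 0.022 over all genes. Nfya, a subunit of NF-Y, differed by -0.33 ± 0.14 (SE) and Rfxank, a subunit of the RFX complex, by 0.20 ± 0.16 (SE). Rfx5, the DNA-binding subunit of that complex, was above background on too few arrays to be tested.

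Of 9 genes of endosomal antigen processing, 5 had a lower and 4 a higher mean, with a median of -0.17. Ctsl, a cathepsin that cuts the invariant chain in thymic epithelium, had a higher mean. Its levels were 6.55, 6.34 and 6.54 in the Itpr2KO livers, against 6.01, 5.96 and 6.26 in the WT livers, with no overlap and a change of 0.40 ± 0.14 (SE; limma adjusted p = 0.810). Ctss, the cathepsin that does this in antigen-presenting cells, had levels of 4.58, 3.92 and 4.48 in Itpr2KO livers, against 4.88, 4.53 and 5.16 in WT livers, a change of -0.53 ± 0.24 (SE; limma adjusted p = 0.810). Ifi30, which reduces disulfide bonds of antigens in the endosome, differed by -0.62 ± 0.26 (SE).

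The costimulation list holds costimulatory and inhibitory molecules that antigen-presenting cells show beside class II. It had lower means in 5 of 6 genes, with a median of -0.58. Cd274, the PD-L1 ligand, had levels of -1.98, -1.40 and -1.48 in Itpr2KO livers, against -0.77, -1.02 and 0.02 in WT livers. The genotypes did not overlap, KO 3 included, and the change was -1.03 ± 0.30 (SE; limma adjusted p = 0.810). Cd40, a receptor through which helper T cells activate antigen-presenting cells, differed by -0.86 ± 0.30 (SE). Pdcd1lg2, the PD-L2 ligand and like Cd274 an inhibitory one, differed by -0.75 ± 0.40 (SE). The costimulatory ligands proper differed less, Cd80 by -0.27 ± 0.34 and Cd86 by -0.41 ± 0.28 (SE), and Icosl was higher, by 0.33 ± 0.35 (SE).

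In interferon gamma signalling, 7 of 10 genes had a lower and 3 a higher mean, with a median of -0.13. Gbp2, an interferon-induced GTPase, differed by -0.85 ± 0.36 (SE), and Ifng, the ligand, by -1.07 ± 0.58 (SE).

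MHC class I presentation, the parallel route that all nucleated cells use, had 12 of 13 genes with a lower mean but a median of only -0.11. Tap1, a subunit of its peptide transporter, differed by -0.65 ± 0.31 (SE) and the immunoproteasome subunits Psmb9 and Psmb8 by -0.38 ± 0.28 and -0.37 ± 0.29 (SE). WT 3 stood highest for class I, the mean centred levels being -0.075, -0.18 and 0.01 on KO 1, KO 2 and KO 3, against -0.075, -0.13 and 0.46 on WT 1, WT 2 and WT 3.

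A list for the helper T cells that read class II placed KO 1 and KO 2 lowest by mean centred level, as class II did. Most of its tested genes are shared by other T cells, so it does not single out helper T cells. The T and NK cell list gave the same 2 lowest livers, at -0.92, -0.56 and 0.75 in KO 1, KO 2 and KO 3, against -0.14, 0.29 and 0.58 in the WT livers. The same 2 livers were also lowest for other class II genes, endosomal antigen processing, costimulation and interferon gamma signalling. They were lowest too for dendritic cells, monocytes and macrophages, and stellate cells, the last narrowly (KO 2 -0.192, WT 3 -0.185). This order was thus not particular to T cells. Of the 11 genes of the helper T cell list, 8 were tested, 7 with a lower mean, and the median was -0.56. None had an unadjusted limma p under 0.05, where 2.66% of all genes did with a lower mean. Lck, the kinase bound to the CD4 coreceptor, had levels of -1.39, -1.33 and 0.36 in KO 1, KO 2 and KO 3, against -0.18, 0.03 and 0.41 in the WT livers. Here too KO 1 and KO 2 lay under all WT livers and KO 3 among them, and the change was -0.87 ± 0.49 (SE; limma adjusted p = 0.813). Cd3g, a chain of the T cell receptor complex, differed by -0.71 ± 0.45 (SE) and Cd28, the receptor of the costimulatory ligands, by -0.58 ± 0.40 (SE). Without KO 3 and WT 1 all 8 were lower on average, and the median was -1.15.

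The marker genes of cells that can carry class II had different patterns beside it. Of 9 tested dendritic cell markers, 4 had a lower and 5 a higher mean, with a median of 0.083, and their summed linear signal was 11.8, 11.3 and 15.1 in KO 1, KO 2 and KO 3, against 12.1, 10.1 and 13.2 in the WT livers. By mean centred level, KO 1 and KO 2 were the 2 lowest livers for this list and KO 3 the highest, at -0.40, -0.39 and 0.63, against 0.020, -0.11 and 0.25 in the WT livers. Clec9a, a receptor of cross-presenting dendritic cells, differed by -0.78 ± 0.45 (SE), Batf3, a transcription factor they need, by -0.45 ± 0.22 (SE) and Zbtb46, a factor of conventional dendritic cells, by 0.25 ± 0.18 (SE). Without KO 3 and WT 1 the median of the list was -0.54.

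B cell markers had a higher mean in 6 of 9 genes, with a median of 0.32. Their summed linear signal was 2.52, 2.53 and 6.48 in KO 1, KO 2 and KO 3, against 4.75, 3.88 and 1.63 in WT 1, WT 2 and WT 3. WT 3 was thus the lowest liver for B cell markers while it was the highest of the WT livers for class II. Pax5 and Blk, which mark B cells, were not above background on any array.

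Kupffer cell markers were lower on average in 11 of 11 genes, and their median of -0.55 was close to that of class II, yet the arrays had another order. Their summed linear signal was 180.4, 132.8 and 164.7 in KO 1, KO 2 and KO 3, against 328.8, 173.5 and 253.7 in the WT livers. By this sum KO 3 lay under all WT livers and WT 1 was the highest. By mean centred level the genotypes overlapped more, at -0.11, -0.57 and -0.21 in KO 1, KO 2 and KO 3, against 0.84, -0.30 and 0.35 in WT 1, WT 2 and WT 3. Cd5l, a protein that macrophages secrete, differed by -0.72 ± 0.22 (SE), C1qa, a chain of complement C1q, by -0.64 ± 0.23 (SE) and Folr2, a folate receptor of resident macrophages, by -1.01 ± 0.40 (SE), each with an adjusted limma p of 0.810. Of the 11 Kupffer cell genes, 5 had an unadjusted limma p under 0.05 with a lower mean, where 2.66% of all genes did. No overlap with a lower level was seen for 2 of them, where 5.15% of genes had none. Without KO 3 and WT 1, 10 of the 11 were lower on average, where 47.3% of all genes were. The median was then -0.45, and 0 of the 11 had an unadjusted limma p under 0.05, where 3.54% of all genes did with a lower mean. In that fit such genes numbered 2 of 9 for dendritic cells and 0 of 9 for B cells. They numbered 4 of 10 for monocytes and macrophages and 6 of 8 for T and NK cells. Of the monocyte and macrophage markers, 7 of 10 were lower on average, the median being -0.36, with summed linear signals of 31.1, 22.0 and 36.0 in Itpr2KO livers, against 38.5, 33.3 and 40.9 in WT livers. That median was -0.18 without KO 2 and -0.63 without KO 3 and WT 1. By mean centred level, KO 1 and KO 2 were lowest for these markers and KO 3 highest, at -0.21, -0.75 and 0.35. WT 1, WT 2 and WT 3 were at 0.17, 0.20 and 0.24.

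Of the remaining marker lists, those of parenchymal, stromal and plasma cells had medians above 0, and that of T and NK cells did not. All 7 hepatocyte markers were higher on average in Itpr2KO livers, the median being 0.21. Sinusoidal endothelial, stellate and cholangiocyte markers had medians of 0.11, 0.088 and 0.24. Plasma cell markers had a higher mean in 5 of 5 genes, with a median of 0.64, but not in every Itpr2KO liver. By mean centred level KO 3 was the highest liver for them and WT 3 the lowest. KO 1 and KO 2 lay under WT 1 and WT 2, at -0.0036 and -0.375 against 0.270 and 0.127. The T and NK cell list, which overlaps the helper T cell list, had its median at -0.62. Without KO 3 and WT 1 the medians were 0.11 for hepatocytes, with 5 of 7 genes higher, -0.060 for cholangiocytes, 0.34 for plasma cells and -1.22 for T and NK cells. The part of any of these cells in the class II levels was not tested.

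**Figure D3:**
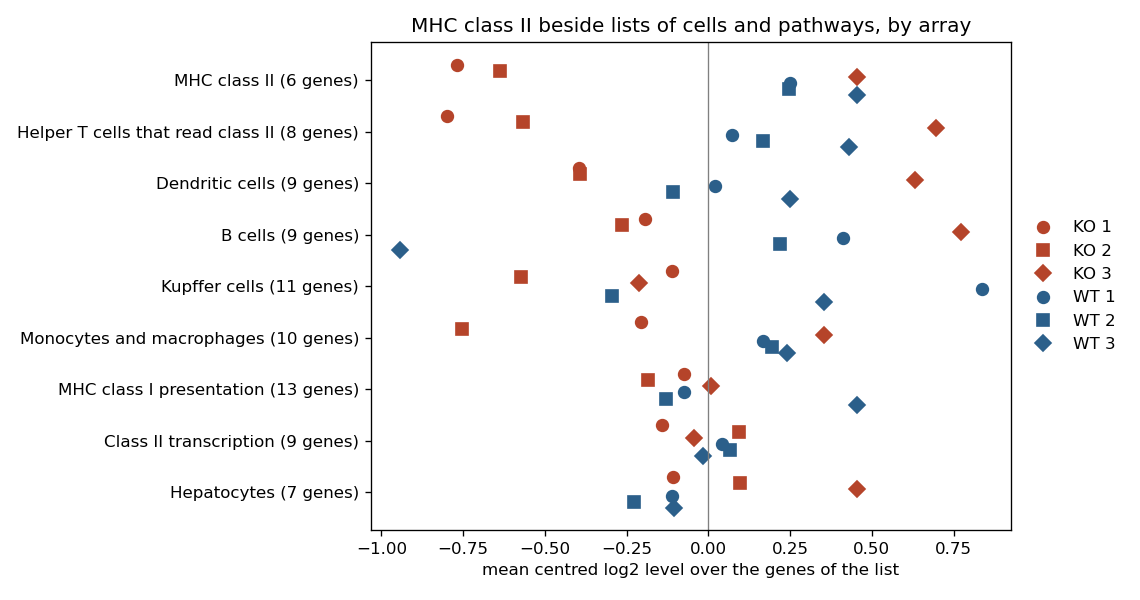
Each point is the mean centred log2 level of a gene list on 1 liver array, for MHC class II and 8 other lists (Itpr2KO red, WT blue, symbols for the replicate number). The helper T cell list, mostly general T cell genes, dendritic cell genes and monocyte and macrophage genes place KO 1 and KO 2 lowest. Each of these lists places KO 3 highest, as -0.40 on KO 1 and 0.63 on KO 3 for dendritic cells. B cell genes place WT 3 lowest and Kupffer cell genes place WT 1 highest.

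The 8 genes with the profile nearest to the mean of the 6 class II genes were sought among 13090 genes with a symbol that were above background on all 6 arrays, by the root mean square difference of centred log2 levels over the 6 arrays. They were Stat4 at 0.087, Ptpn22 at 0.099, Gpr132 at 0.119, Tmsb10 at 0.134, Olfr212 at 0.144, Cd3e at 0.149, Bcl2a1d at 0.170 and Syn1 at 0.171, where the median candidate lay at 0.553. Stat4, a transcription factor of the interleukin 12 response in T and NK cells, had levels of -3.89, -3.92 and -2.80 in KO 1, KO 2 and KO 3, against -3.02, -3.16 and -2.89 in the WT livers. Ptpn22, a phosphatase of lymphocytes, had -2.02, -1.99 and -0.79 in KO 1, KO 2 and KO 3, against -1.17, -1.09 and -1.08 in the WT livers. Both placed KO 1 and KO 2 lowest and KO 3 highest, as did Cd74. The 8 genes had limma adjusted p from 0.820 to 0.850, and their likeness was what chose them.

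**Figure D4:**
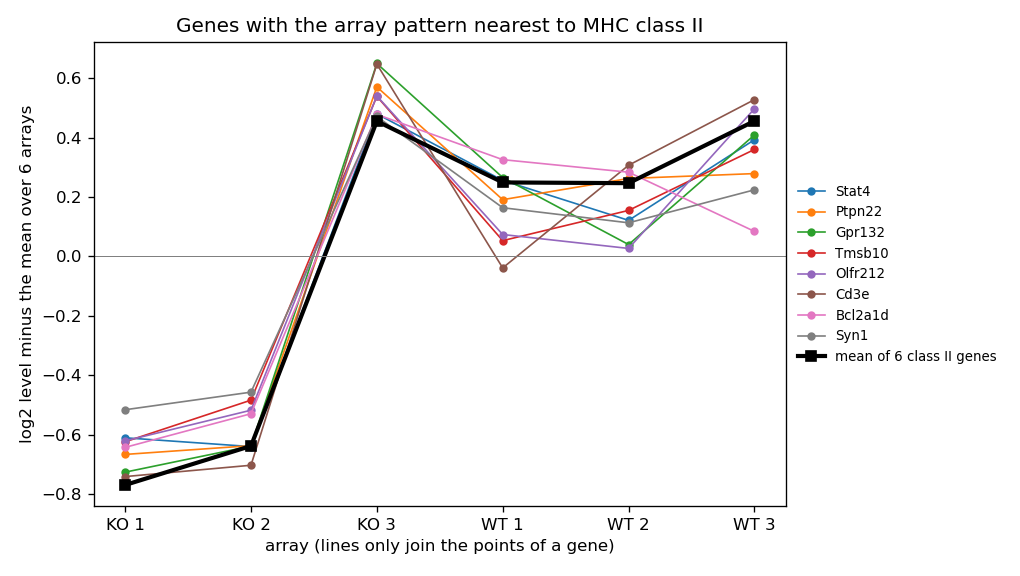
Each thin line is the log2 level of 1 gene minus its mean over the 6 arrays, for the 8 genes nearest to the mean profile of the 6 class II genes (thick line), with Itpr2KO arrays on the left. The class II profile runs at -0.77, -0.64 and 0.45 on KO 1, KO 2 and KO 3, against 0.25, 0.25 and 0.46 on WT 1, WT 2 and WT 3.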

How the data were processed

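Liver RNA of 3 Itpr2KO and 3 WT mice was labelled with Cy3, per the labels' protocols. The deposited scanner tables hold background-subtracted intensity values from Agilent Feature Extraction. Its version is 11.5.1.1 in the file headers and 10.7.3.1 per the submitters' processing notes. A deposited table of the authors' own log2 values was an alternative. Its columns for KO 2 and KO 3 matched the scanner arrays KO 3 and KO 2 (r = 0.9991 and 0.9992 across probes). Both are Itpr2KO arrays, and the scanner tables decide the names used here.

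Control spots and 818 outlier spots were left out, spots of a probe were averaged, and log2 values were set relative to the 75th percentile of each array. Accessions matched to a RefSeq table of assembly GRCm38.p6 gave 28330 of 39429 probes 1 symbol, 0 several and 11099 none. A probe was kept if well above background on all 3 arrays of a genotype, and the brightest probe stood for its gene. Genotypes were compared with limma 3.58.1 in R 4.3.3 (lmFit, eBayes, two-sided, Benjamini-Hochberg adjustment). The procedure was tested on simulated data. Replicate numbers were not used as pairs in the main fit, since the labels state no block. Deviations of same-numbered arrays from their genotype means correlated over genes at -0.19, 0.042 and -0.28. With 3 arrays per genotype these values cannot decide whether the mice were paired. No spot was saturated, 57.5% to 59.5% of probes were above background on each array, and precision is limited by how few arrays there are. From each list the 3 tested genes with the smallest unadjusted p were named, and all members, except 1 list gene that is not reported here. The members and lists were chosen with earlier results of these data known. Alternatives are given in the closing section.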

Additional observations from a re-analysis of the deposited data

How the results depend on the processing

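Over 23 alternatives, 21 of them with a test, 0 of the tested class II genes passed the adjusted threshold with limma. At an unadjusted limma p under 0.05 the main comparison had 1 of 7. The lowest adjusted p of any of them was 0.139 (H2-DMb2 with normexp). The changes of the other 6 tested genes were negative in 139 of 139 values, from -1.34 to -0.20, and the median of the tested genes ran from -0.99 to -0.29. These values all come from the same 6 arrays. Some settings, such as the replicate block or leaving off the filter on dim probes, repeat the main changes exactly. The count of negative values is therefore no measure of support. H2-DMb2, a dim probe, turned to 1.35 with normexp background correction, 0.28 with a trimmed normexp that was chosen after seeing the data, 0.046 with the slide block and 0.89 within slide 2, and ran from -0.65 to 0.32 with 1 array left out. The cause was not tested. The replicate block left the class II changes as in the main fit, so its median of -0.57 and its 7 of 7 lower only repeat it. Its limma adjusted p ran from 0.768 to 0.990, and 0 genes were called in all. Normexp used the median signal, since the tables held no mean signal column. Over all genes, the unadjusted count of 1104 became 5947 with normexp, 2853 with its trimmed form, 1696 without KO 1 and 674 without WT 2, and the adjusted count of 1 became 0 with these and with KO 2, KO 3 or WT 1 left out. The split of unadjusted calls, 625 higher and 479 lower, became 274 and 627 with median centring, 514 and 548 with quantile scaling and 182 and 727 with unscaled signals.

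List medians moved with normexp to 1.28 for the other class II genes, 0.14 for class II transcription (0.14 trimmed), -0.54 for endosomal processing, 0.33 for costimulation (-0.20 trimmed), -0.43 for interferon gamma signalling, -0.68 for class I, 0.24 for helper T cells, 0.90 for dendritic cells, 0.98 for B cells, -0.59 for monocytes and macrophages and -1.15 for Kupffer cells. Unscaled signals gave -0.17 for class II transcription and -0.30 for endosomal processing. Within slide 1 they were -0.96 for the other class II genes, 0.098 for class II transcription, -0.87 for B cells and -0.27 for Kupffer cells, and within slide 2 -0.48 for interferon gamma signalling, -0.58 for class I and 1.93 for B cells. The mean over probes gave -0.30 for endosomal processing. Without KO 3 and WT 1, interferon gamma signalling was at -0.39, helper T cells at -1.15, dendritic cells at -0.54 and B cells at 0.13. With 1 array left out, the medians ran from -0.69 to 0.53 for the other class II genes, -0.085 to 0.13 for class II transcription, -0.25 to -0.13 for endosomal processing, -0.89 to -0.35 for costimulation, -0.29 to -0.046 for interferon gamma signalling, -0.22 to 0.056 for class I, -0.99 to -0.27 for helper T cells, -0.53 to 0.18 for dendritic cells, -0.31 to 0.53 for B cells, -0.79 to -0.39 for Kupffer cells and -0.51 to -0.18 for monocytes and macrophages. The causes were not tested.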
